A study of Mus musculus with 24 samples.

Results

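The genes described here are 10 regulators of the step from the G1 phase of the cell cycle into DNA synthesis, taken by symbol from a table of 32040 genes. They are 6 inhibitors of cyclin-dependent kinases (Cdkn1a, Cdkn1b, Cdkn2a, Cdkn2b, Cdkn2c and Cdkn2d), 3 D cyclins (Ccnd1, Ccnd2 and Ccnd3) and the retinoblastoma gene Rb1. Their RNA was followed in supporting cells sorted from mouse fetal gonads at 4 stages, 3 of them a day apart from E11.5 to E13.5 (E for embryonic day) and the last at E15.5, with 3 libraries for each of 8 groups and 24 libraries in all. Per the labels, XX libraries hold pre-granulosa cells, the supporting cells of the fetal ovary, from the Tg(Enh8-mCherry) mouse line, and XY libraries hold Sertoli cells, those of the fetal testis, from the SOX9-IRES-GFP line. Both are fluorescent reporter lines by name and the cells were sorted by FACS; the labels give no gate, no deletion and no treatment for any group, and about 40000 sorted cells went into each library. Sex, mouse line and sorting fluorophore change together between the XX and XY groups, so a difference between them cannot be told apart from one between lines or sorts. The labels do not say whether the 3 libraries of a group came from separate embryos or pools, so the p-values measure the spread between these libraries, which may be partly technical. In bulk RNA such as this, fewer cells of a type and less RNA per cell cannot be told apart.

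In G1, D cyclins bind the kinases CDK4 and CDK6, and these complexes begin to phosphorylate the retinoblastoma protein, which otherwise holds E2F transcription factors in check. The Cip/Kip inhibitors p21 (Cdkn1a), p27 (Cdkn1b) and p57 (Cdkn1c) act on complexes of cyclin-dependent kinases and are best known for blocking CDK2, while the INK4 inhibitors p16 (Cdkn2a), p15 (Cdkn2b), p18 (Cdkn2c) and p19 (Cdkn2d) bind CDK4 and CDK6 and keep D cyclins from them. Pre-granulosa cells of the mouse fetal ovary are known to leave the cell cycle and to hold p27 protein, whereas fetal Sertoli cells go on dividing. Much of the control of these proteins, p27 above all, acts on translation and degradation, which RNA counts do not measure.

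Levels are given as CPM, counts scaled by library size, which follow 1 gene across libraries, and as TPM, which are also scaled by transcript length and are used to set genes side by side. Library totals ran from 11275251 to 37256881 counts. Leading markers followed the labels: Foxl2, a transcription factor of pre-granulosa cells, had between 2.62 and 45.8 CPM in XX libraries and at most 0.261 in XY libraries, and Sox9, which drives Sertoli cell fate, had at least 1125 CPM in XY and at most 226 in XX libraries. Of 8 pre-granulosa markers, 7 were higher in XX at E11.5, but Lgr5 was lower (log2 -2.21), and their sum there was 412, 1008 and 328 CPM in XX beside 203 to 285 in XY. The 3 XX E11.5 libraries stood apart from each other and from the rest. In replicates 1, 2 and 3, Foxl2 was at 2.62, 35.2 and 4.73 CPM, 5 erythroid genes together at 5211, 2282 and 14070 CPM (7.96 to 16.7 in XY E11.5), 5 interstitial genes at 673, 277 and 2097 CPM (594 to 997 in XY E11.5), and 5 immune genes at 183, 93.2 and 299 CPM (0.245 to 1.51 in XY E11.5). No erythroid, immune or interstitial gene of these lists was at 0 throughout the XX E11.5 group. Replicate 2 thus held the most Foxl2 and the least of these 3 other lineages, and replicate 3 the most erythroid RNA. Immune genes summed to 20.8 to 299 CPM over all XX libraries, and 9 germ cell genes at E15.5 to 104 to 166 CPM in XX and 47.8 to 75.4 in XY. Other lineages also differed after E11.5. At E12.5 erythroid genes summed to 439 to 1045 CPM in XX and 15.3 to 29.6 in XY. At E13.5 interstitial genes summed to 184 to 247 CPM in XX and 11 to 14.7 in XY. At E15.5, 5 steroidogenic genes summed to 293 to 322 CPM in XX and 60.1 to 102 in XY, with 1 called higher in XX and 2 lower. Among the members in XX E11.5, Cdkn2c, Cdkn2d, Ccnd3 and Rb1 followed the erythroid order (replicate 3 highest, replicate 2 lowest), and Cdkn1b, Cdkn2b and Ccnd2 ran in reverse. The XY E11.5 libraries also differed from later XY libraries. Their 5 interstitial genes summed to 594 to 997 CPM, against 21.99 to 26.2 at XY E12.5. Their 8 Sertoli markers summed to 1537 to 2753 CPM, against 8871 to 9468 at XY E12.5. XY changes from E11.5 thus compare libraries that differ in these genes. The part of other cell types was not tested, in changes from E11.5 or in differences between the sexes.

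Calls rest on edgeR's quasi-likelihood test, at a threshold of 0.05 for the adjusted p, with adjustment over all 16190 genes tested. Of the 10 genes, 9 passed the filter on low counts, and Cdkn2a did not. At E11.5, 8 of the 9 were called between XX and XY, 5 higher in XX and 3 lower, where 42% of all genes were called (21.4% higher and 20.6% lower). At E12.5, 4 were called, 3 higher in XX and 1 lower, against 62.1% of all genes (30.5% and 31.5%). At E13.5, 4 were called, all of them higher in XX, against 66.1% of all genes (32.8% higher and 33.3% lower). At E15.5, 7 were called, 3 higher in XX and 4 lower, against 69.4% of all genes (34.9% and 34.4%). Differences between the sexes were thus common among all genes, and only the E11.5 count lay well above its background share, a count that was 5 when only the libraries compared entered the fit. The 42% belongs to the main fit, and the share of all genes called in that smaller fit is not given here. The median log2 difference, XX minus XY, over the 9 genes was 0.84, 0.33, 0.15 and -0.18 in stage order, beside 0.02, -0.0051, 0.0053 and 0.05 over all genes tested.

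Cdkn1a, Cdkn1b, Ccnd1 and Ccnd2 were called at all 4 stages, as were 21.5% of all genes, 17.9% with 1 sign throughout. Cdkn1a and Cdkn1b were higher in XX throughout, a pattern found in 8.49% of all genes, while Ccnd1 and Ccnd2 changed sign between stages, as did 3.6% of all genes. The plot of all 10 genes by library and the plot of the XX minus XY differences show these patterns.

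**Figure D1:**
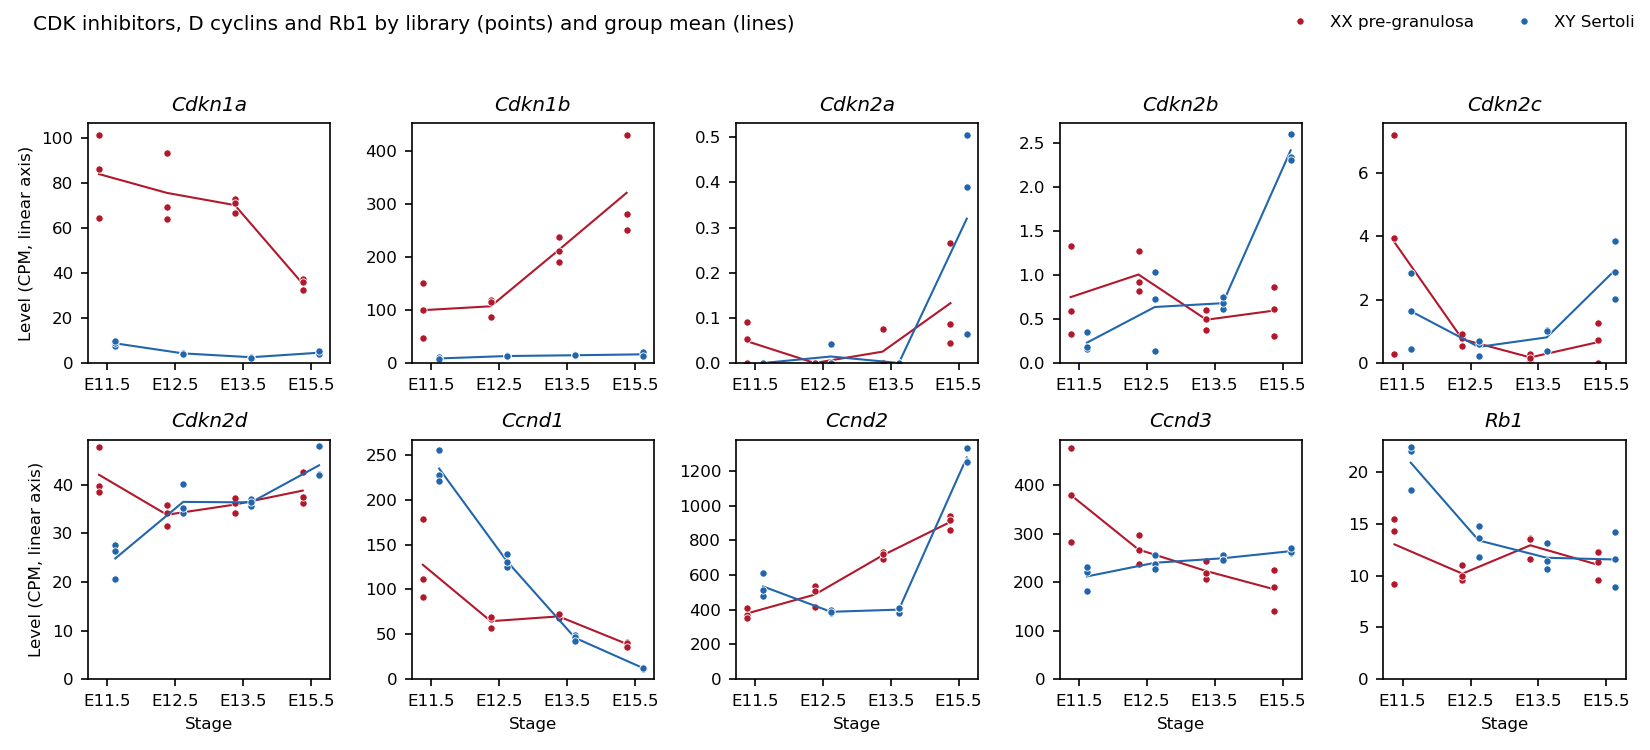
Level of each gene in CPM (vertical axis, linear, from 0, with its own range per panel) against embryonic stage; points are single libraries, lines join the means of 3 libraries, red is XX and blue is XY. Cdkn1a and Cdkn1b are higher in every XX library than in any XY library, Ccnd1 falls in XY from 235 to 12.3 CPM, and Cdkn2a stays at or below 0.505 CPM.

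**Figure D2:**
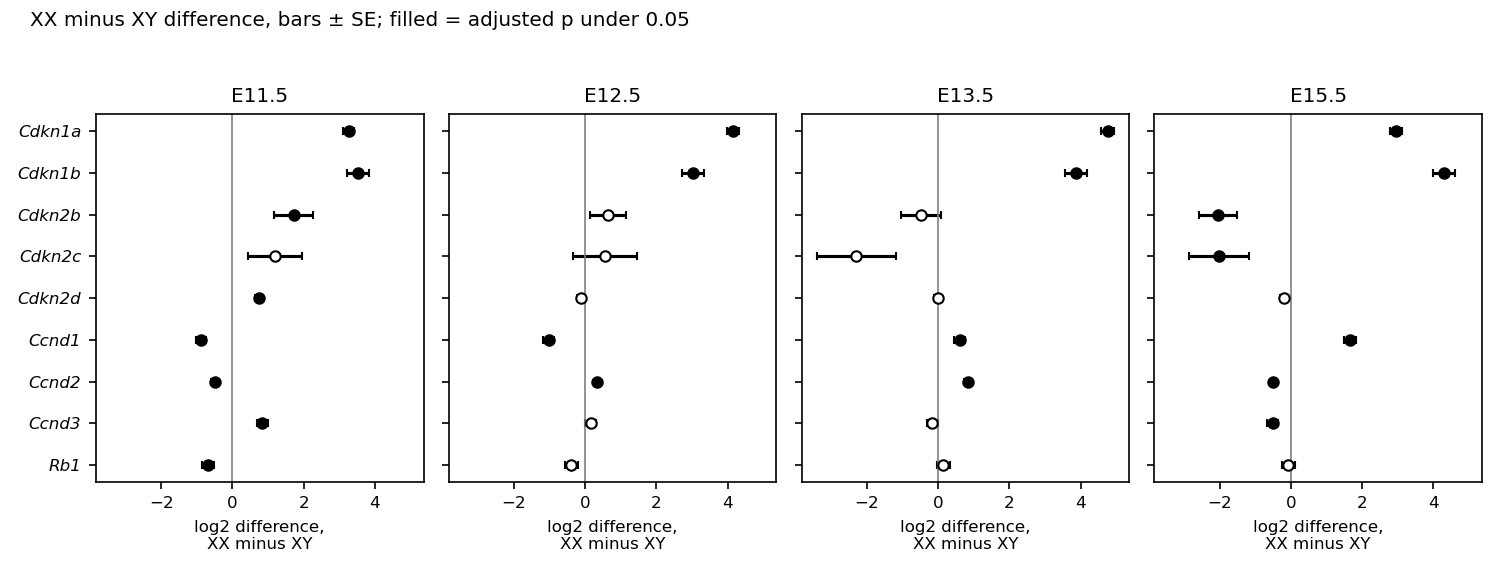
Log2 difference, XX minus XY, of the 9 genes tested (horizontal axis) at each stage; bars are ± 1 SE of the edgeR fit, and filled points have an adjusted p under 0.05. Cdkn1a and Cdkn1b lie between 2.95 and 4.77 at every stage, while Ccnd1 crosses from -0.88 at E11.5 to 1.67 at E15.5.

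The Cip/Kip genes Cdkn1a and Cdkn1b had far more RNA in pre-granulosa than in Sertoli cells at every stage, and they moved apart from each other within the XX series: Cdkn1a fell and Cdkn1b rose. Cdkn1a encodes p21, a target of p53 that also binds the replication clamp PCNA. Its XX levels were 101, 64.2 and 85.9 CPM at E11.5, then 64.03, 69.1 and 93.3, then 66.4, 72.8 and 70.8, and finally 37.1, 32.3 and 35.99. Its XY levels were 7.63, 8.78 and 9.74 CPM, then 4.34, 4.31 and 4.11, then 2.43, 2.87 and 2.39, and 4.51, 3.98 and 5.19 at E15.5. No XY library reached the lowest XX library at any stage, and the 3 XX E15.5 libraries lay below all earlier XX libraries. The XX level was 9.6-fold higher at E11.5 (log2 difference 3.26, SE 0.16, adjusted p = 2.04e-12), then 17.7-fold and 27.2-fold, and 7.71-fold at E15.5 (log2 2.95, SE 0.17, adjusted p = 2.66e-12). The difference widened to E13.5 while XY levels fell, and it narrowed at E15.5 as XX fell and XY rose.

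In XX cells, the Cdkn1a steps up to E13.5 were not called (log2 -0.15 and -0.11), and the level fell by 1.0 on the log2 scale from E13.5 to E15.5 (adjusted p = 7.02e-05). In XY cells, Cdkn1a fell at each of the first steps, by 1.03 (adjusted p = 2.23e-05) and by 0.73 (adjusted p = 0.00902), and rose by 0.82 at the last (adjusted p = 0.00268). The middle step was no longer called without XY E13.5 replicate 3 (log2 -0.65, adjusted p = 0.0638) or with limma-trend on TPM without a filter (-0.53, adjusted p = 0.0658). From E11.5 to E15.5 the change was -1.25 in XX and -0.94 in XY, and the difference between these changes was not called (-0.32, SE 0.22, adjusted p = 0.244); without XX E11.5 replicate 2 it was -0.49, with an adjusted p of 0.0421.

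Cdkn1b encodes p27, the inhibitor known from arrested pre-granulosa cells. XX libraries had 99.5, 152 and 47.6 CPM at E11.5, then 118, 116 and 86.7, then 191, 211 and 237, and finally 281, 251 and 430.3. XY libraries had 10.8, 8.31 and 6.74 CPM, then 13.1, 13.6 and 12.8, then 14.5, 14.5 and 14.8, and 14.6, 20.4 and 14.1 at E15.5. The sexes did not overlap at any stage, and all XX libraries from E13.5 on lay above all earlier ones. The XX E11.5 libraries were the most scattered, with replicate 2 highest and replicate 3 lowest, the reverse of the order of the erythroid genes there. XX was 11.6-fold higher at E11.5 (log2 3.54, SE 0.31, adjusted p = 2.06e-08), with log2 differences of 3.10 and 3.86 without replicate 2 and without replicate 3. It was 8.13-fold higher a day later, then 14.6-fold, and 19.6-fold by E15.5 (log2 4.29, SE 0.32, adjusted p = 2.74e-10).

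Cdkn1b rose 3.22-fold in XX from E11.5 to E15.5 (log2 1.69, SE 0.28, adjusted p = 3.84e-05). Of its steps, that from E12.5 to E13.5 was called (log2 0.99, adjusted p = 0.00922; 0.0541 with limma-trend on TPM without a filter), and the last was not (0.59, adjusted p = 0.12). In XY it rose 1.9-fold over the same span (adjusted p = 0.0117), a call lost without XY E11.5 replicate 3 (adjusted p = 0.096) or XY E15.5 replicate 2 (0.11). The rise was not shown to differ between the sexes: the difference was 0.76 (SE 0.40, adjusted p = 0.122), but without XX E11.5 replicate 2 it was 1.18 (adjusted p = 0.00869) and with limma-trend on log2(TPM + 1) it was 0.95 (adjusted p = 0.0389).

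The promoters of these genes are shown because both inhibitors were higher in XX cells throughout. Each sequence is the 250 bases before a RefSeq start site in GRCm38.p6, 5′ to 3′ on the strand of the gene, and capitals mark GGGCGG, the GC box that SP1 binds. Cdkn1b lies on the plus strand of chromosome 6, in GENCODE M21 at 134920401 to 134925513, and the window is chr6:134920151-134920400. Cdkn1a lies on the plus strand of chromosome 17 at 29090976 to 29100727, and the window, before the later of its 2 RefSeq start sites, is chr17:29093519-29093768.
Cdkn1b promoter: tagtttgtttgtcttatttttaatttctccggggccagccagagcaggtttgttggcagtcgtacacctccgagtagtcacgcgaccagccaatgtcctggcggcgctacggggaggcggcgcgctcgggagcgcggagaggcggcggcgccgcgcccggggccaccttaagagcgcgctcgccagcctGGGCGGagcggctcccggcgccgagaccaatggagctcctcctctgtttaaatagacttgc
Cdkn1a promoter: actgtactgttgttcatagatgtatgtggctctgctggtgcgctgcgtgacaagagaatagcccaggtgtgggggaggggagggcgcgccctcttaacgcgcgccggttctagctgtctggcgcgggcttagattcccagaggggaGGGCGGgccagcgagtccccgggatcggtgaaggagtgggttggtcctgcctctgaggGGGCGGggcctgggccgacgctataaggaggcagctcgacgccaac

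The Cdkn1b window holds 1 GC box, 61 to 56 bases before the start, and the Cdkn1a window holds 2, at 104 to 99 and 46 to 41 bases before it. The window before the other Cdkn1a start site, which lies at the start of the gene, holds 0 GC boxes. A GC box on either strand was present in 32.7% of 32851 RefSeq promoters of that length, so it does not set these genes apart. Neither window holds an E2F site in any of the forms TTTCCCGC, TTTCGCGC, TTTGCCGC or TTTGGCGC (1.86% of promoters), the FOX motif GTAAACA (3.17%) or the SOX and TCF motif AACAAAG (5.03%), on either strand. Such matches are descriptions of letters and not of binding. RefSeq windows were found for 7 of the 10 genes, at 11 start sites; Ccnd1, Ccnd2 and Rb1 had none in the table used.

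Per length and by group means, the balance of p21 and p27 RNA turned over in both sexes, and reached a higher ratio in XX by E15.5. In XX the ratio of Cdkn1b to Cdkn1a in TPM was 0.618 ± 0.461 at E11.5, then 0.672 ± 0.218, then 1.37 ± 0.153, and finally 4.21 ± 1.12 (SD, n = 3). In XY it was 0.439 ± 0.18, then 1.44 ± 0.0309, then 2.56 ± 0.333, and finally 1.66 ± 0.467, so its group mean passed 1 a stage earlier there. At E15.5 every XX library held more Cdkn1b than Cdkn1a, at least 3.51 times as much, while at E12.5 none did. The XX E11.5 libraries were split, at 0.463, 1.14 and 0.254 in replicates 1, 2 and 3. Replicate 2, the one with the most Foxl2, was thus already above 1. The summed XX level of Cdkn1a and Cdkn1b changed less, from 180.2 ± 33.1 TPM at E11.5 to 236 ± 51.6 at E15.5, ranges that overlapped. In XY cells the sum was 19.2 ± 1.48 TPM at E11.5 and 15.9 ± 1.94 at E15.5. Where a ratio passes 1 depends on the transcript lengths used, so it holds only for the deposited TPM.

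Cdkn1c, the third Cip/Kip gene and an imprinted one, is no member of the group but had the most RNA per length of any inhibitor measured in XX cells, 3665, 3273, 555 and 2253 TPM in stage order. In CPM it had 2022, 1925 and 2551 in XX at E15.5 and 15.4, 15.2 and 9.43 in XY. The XX minus XY difference was 1.48 at E11.5 (adjusted p = 0.0342), where 1 XY library lay above the lowest XX library, then 5.32 and 2.38, and 7.33 by E15.5 (adjusted p = 2.36e-08). All 3 Cip/Kip genes were thus called higher in XX at every stage. Cdkn1c dipped at E13.5, to 588, 507 and 391 CPM.

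The INK4 genes did not follow this pattern: Cdkn2d was present at similar levels in both sexes from E12.5 on, and the other 3 had few counts. Cdkn2d (chromosome 9, 21288410 to 21291407, minus strand), which encodes p19-INK4d, had 39.9, 38.6 and 47.8 CPM in XX and 20.6, 27.5 and 26.4 in XY at E11.5. From E12.5 to E15.5 its XX libraries lay between 31.6 and 42.6 CPM and its XY libraries between 34.1 and 47.97, ranges that overlapped. Only at E11.5 was it called between the sexes (log2 0.76, SE 0.11, adjusted p = 1.43e-05), where its XX libraries followed the erythroid order; without XX E11.5 replicate 3 the difference was 0.65 (adjusted p = 0.000171). The later differences, -0.11, -0.02 and -0.18, were not called (adjusted p = 0.413, 0.905 and 0.151), and the sign of the first of them turned with limma-trend on TPM (0.11) and that of the second with DESeq2 size factors (0.04). Cdkn2d rose in XY from E11.5 to E15.5 (log2 0.82, adjusted p = 2.04e-06) and not in XX (-0.12, adjusted p = 0.382), and the difference between these changes was called (-0.94, adjusted p = 3.78e-05).

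Cdkn2b encodes p15, an inhibitor known to respond to TGF-beta. It had few counts, between 5 and 29 per library in XX and between 3 and 54 in XY. XX libraries had 0.588, 1.33 and 0.324 CPM at E11.5 and 0.608, 0.866 and 0.312 at E15.5, and XY libraries had 0.353, 0.155 and 0.183 at E11.5 and 2.34, 2.3 and 2.6 at E15.5. The XY E15.5 libraries were higher than every other library of either sex. Their level was 10.3-fold that at XY E11.5 (log2 3.36, SE 0.54, adjusted p = 1.74e-05) and 4.14-fold that at XX E15.5 (log2 XX minus XY -2.05, SE 0.53, adjusted p = 0.00176). At E11.5 Cdkn2b was higher in XX (log2 1.72, adjusted p = 0.0168), although the groups overlapped and the call was lost without XX E11.5 replicate 2 (0.99, adjusted p = 0.207), XY E11.5 replicate 2 (adjusted p = 0.0663) or XY E11.5 replicate 3 (0.0543). With limma-trend on log2(TPM + 1) that difference was 0.50 (adjusted p = 0.0646), and with only the libraries compared in the fit it was 1.70 (adjusted p = 0.116). Cdkn2b lies on the minus strand of chromosome 4, at 89306299 to 89311039. Its promoter is shown because, of the INK4 genes tested, it had the largest rise in XY cells from E11.5 to E15.5, and capitals mark TGACGTCA, the cyclic AMP response element, 46 to 39 bases before the start. The window is chr4:89311033-89311282 of GRCm38.p6.
Cdkn2b promoter: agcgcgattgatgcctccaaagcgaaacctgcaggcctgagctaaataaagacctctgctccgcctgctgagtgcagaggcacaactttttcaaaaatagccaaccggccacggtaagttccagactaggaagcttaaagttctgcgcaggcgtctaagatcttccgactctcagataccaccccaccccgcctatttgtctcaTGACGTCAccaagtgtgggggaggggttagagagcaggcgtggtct

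That element was found in 1.55% of the 32851 promoters and in none of the other 10 windows of these genes. Cdkn2a, which encodes p16 and, in another reading frame, the p53 activator p19-ARF, lies at 89274471 to 89294653 of chromosome 4, 11.6 kb from Cdkn2b. It had no count in 14 of 24 libraries, where a count of 0 allows up to 3 counts, or 0.0805 to 0.266 CPM by library. Its highest counts were 9, 9 and 1 in the XY E15.5 libraries, beside 1, 4 and 1 in XX E15.5. It was therefore not tested, and gene counts cannot separate the p16 transcript from the ARF transcript.

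Cdkn2c (chromosome 4, 109660876 to 109667189, minus strand), which encodes p18, was low and scattered. XX libraries had 3.96, 0.275 and 7.2 CPM at E11.5, then 0.777, 0.546 and 0.923, then 0.296, 0.083 and 0.151, and finally 0, 0.733 and 1.25, the last set from 0, 11 and 28 counts. XY libraries had 0.435, 1.63 and 2.85 CPM at E11.5 and 3.86, 2.86 and 2.02 at E15.5, and between 0.234 and 1.04 at the stages between. Its XX E11.5 libraries followed the order of the erythroid genes, with replicate 3 highest and replicate 2 lowest, and its XX minus XY difference there (log2 1.20, adjusted p = 0.217) was called only without replicate 2 (1.75, adjusted p = 0.0299). The first XX step, a fall (log2 -2.32, adjusted p = 0.035), was not called without XX E11.5 replicate 3 (-1.47, adjusted p = 0.216) or replicate 1 (0.0686), or without XX E12.5 replicate 1 (0.0845), 2 (0.107) or 3 (0.0665). At E15.5 the gene was lower in XX (log2 -2.02, SE 0.85, adjusted p = 0.0401), a call that ended without any of 8 libraries: XX E12.5 replicates 2 and 3, XX E13.5 replicate 2, XX E15.5 replicates 1 and 2, XY E13.5 replicate 2, and XY E15.5 replicates 1 and 2 (adjusted p between 0.0527 and 0.122).

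The 3 D cyclins changed in different ways: Ccnd1 fell in both sexes and far more steeply in Sertoli cells, Ccnd2 rose in both along different courses, and Ccnd3 fell in pre-granulosa cells. Ccnd1 encodes cyclin D1, the D cyclin most closely tied to growth factor signals. XX libraries had 178, 92.04 and 112 CPM at E11.5, then 67.2, 69.4 and 57.1, then 69.7, 67.6 and 72.5, and finally 41.3, 40.2 and 36.3. XY libraries had 228, 255 and 222 CPM, then 124, 139 and 130.3, then 48.7, 47.1 and 42.3, and 12.8, 11.7 and 12.6 at E15.5. The XY level dropped at every step with no overlap between stages, and the sexes changed places between E12.5 and E13.5 without overlapping at any stage. The XX minus XY difference was -0.88 (SE 0.15, adjusted p = 8.68e-05) at E11.5 and -1.02 (adjusted p = 6.5e-06) at E12.5, and then 0.60 (adjusted p = 0.0017; 0.0809 with limma-trend on TPM without a filter) at E13.5 and 1.67 (SE 0.17, adjusted p = 1.24e-08) at E15.5. Each of these signs held in all alternatives run.

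From E11.5 to E15.5 Ccnd1 fell 19.01-fold in XY (log2 -4.25, SE 0.18, adjusted p = 2.54e-14) and 3.25-fold in XX (log2 -1.70, SE 0.16, adjusted p = 2.14e-08). The difference between these falls was 2.55 (SE 0.22, adjusted p = 6.89e-09). In XX the fall came in separate steps, E11.5 to E12.5 (-0.98) and E13.5 to E15.5 (-0.83), with 0.11 (adjusted p = 0.614) between them. Ccnd1 lies on chromosome 7 at 144929931 to 144939925, minus strand, and overlaps LTO1 on the plus strand, which had group means of 22.5 to 64.8 CPM; whether the counting used strand is not given in the sources used here.

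Ccnd2 (chromosome 6, 127125162 to 127152193, minus strand) encodes cyclin D2, known for its role in granulosa cell and testis growth. XX libraries had 371, 410.2 and 352 CPM at E11.5, then 536, 509.8 and 414, then 689.8, 731 and 718, and finally 943, 861 and 916. XY libraries had 479.6, 512 and 611 CPM, then 383, 396 and 384, then 382, 408 and 411, and 1255, 1249 and 1332 at E15.5. XX libraries rose at each stage without overlap, whereas XY libraries dipped, stayed level and then rose above every XX library. The XX minus XY difference was -0.50 at E11.5 (SE 0.095, adjusted p = 0.000266; 0.0512 with only the libraries compared), then 0.33 (adjusted p = 0.00524), 0.83 (adjusted p = 1.52e-07) and last -0.50 (SE 0.095, adjusted p = 9.5e-05). The sexes did not overlap at any stage.

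Over the whole span Ccnd2 rose 2.4-fold in XX (log2 1.26) and 2.39-fold in XY (log2 1.26), and the difference between these rises was 0.0031 (SE 0.13, adjusted p = 0.994), with a 95% interval of the ratio from 0.835 to 1.20. In XY the called rise was the last step, 1.67 (SE 0.098, adjusted p = 3.18e-10). In XX the steps were 0.37, 0.55 and 0.35 (adjusted p = 0.00574, 0.000209 and 0.0107). Limma-trend on log2(TPM + 1) called neither the second (0.33, adjusted p = 0.0765) nor the third (0.27, adjusted p = 0.17), the fit of only the libraries compared did not call the first (0.33, adjusted p = 0.15), and the third was lost without XX E13.5 replicate 1 (0.32, adjusted p = 0.0503). The XY dip from E11.5 to E12.5 (-0.46, adjusted p = 0.00038) was not called on log2(TPM + 1) either (adjusted p = 0.0948).

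Ccnd3 (chromosome 17, 47505051 to 47599691, plus strand) encodes cyclin D3, the third of these regulatory subunits. XX libraries had 380.0, 284 and 478 CPM at E11.5, then 268, 298 and 237, then 243, 206 and 219, and finally 189.9, 225 and 141. XY libraries had 182, 222 and 232 CPM, then 256, 237 and 228, then 256, 246 and 246, and 260.3, 262 and 271 at E15.5. XX libraries lay above XY at E11.5, overlapped them a day later and lay below them from E13.5 on. The difference was 0.84 at E11.5 (SE 0.16, adjusted p = 0.00019) and -0.51 at E15.5 (SE 0.16, adjusted p = 0.0063), and it was not called between (0.16 and -0.16). The E15.5 call was lost without XX E15.5 replicate 3, the lowest library (-0.35, adjusted p = 0.0555). Ccnd3 fell 2.05-fold in XX from E11.5 to E15.5 (log2 -1.04, SE 0.16, adjusted p = 1.07e-05), while its XY change of 0.32 was not called (adjusted p = 0.086); the difference between the changes was -1.35 (adjusted p = 2.73e-05). The XX E11.5 libraries followed the order of the erythroid genes, with replicate 3 highest and replicate 2 lowest, and without replicate 3 the E11.5 difference was 0.63 (adjusted p = 0.00255), the XX fall was -0.90 (adjusted p = 6.11e-05) and the first XX step was no longer called (-0.31, adjusted p = 0.153). Bysl, on the other strand, overlaps Ccnd3 and had group means of 30.5 to 48.9 CPM.

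Per length, Ccnd2 came to hold most D cyclin RNA in both sexes. Its share of the summed D cyclin TPM in XX was 42.9 ± 13.7% at E11.5, then 65.2 ± 1.29%, then 76.1 ± 1.46%, and finally 82.4 ± 2.71% (SD, n = 3), and in XY it was 55.9 ± 1.99%, 58.2 ± 2.54%, 61.4 ± 0.958% and 85.05 ± 0.669%. The share of Ccnd1 fell from 11.1 ± 4.07% to 2.19 ± 0.265% in XX and from 21.2 ± 0.964% to 0.437 ± 0.0727% in XY. Ccnd3 held 34.2% to 59.2% in the XX libraries at E11.5 and 15.4 ± 2.51% at E15.5, and in XY it held 34.1 ± 0.942% at E13.5 but 14.5 ± 0.609% at E15.5. At E15.5 the 2 sexes thus had a similar D cyclin composition, apart from the smaller Ccnd1 share in XY. The summed level was 692 ± 56.8 TPM in XX at E11.5 and 979 ± 137 at E15.5, and in XY it was 807 ± 53.6, 576 ± 33.5 at E13.5 and 1448 ± 82.6 by E15.5. The deposited counts and TPM imply a mean transcript length for Ccnd2 of 1.40 to 2.71 kb by library, against 6.33 kb for its longest annotated coding transcript, so its TPM level depends on which transcripts the authors' counting used.

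**Figure D3:**
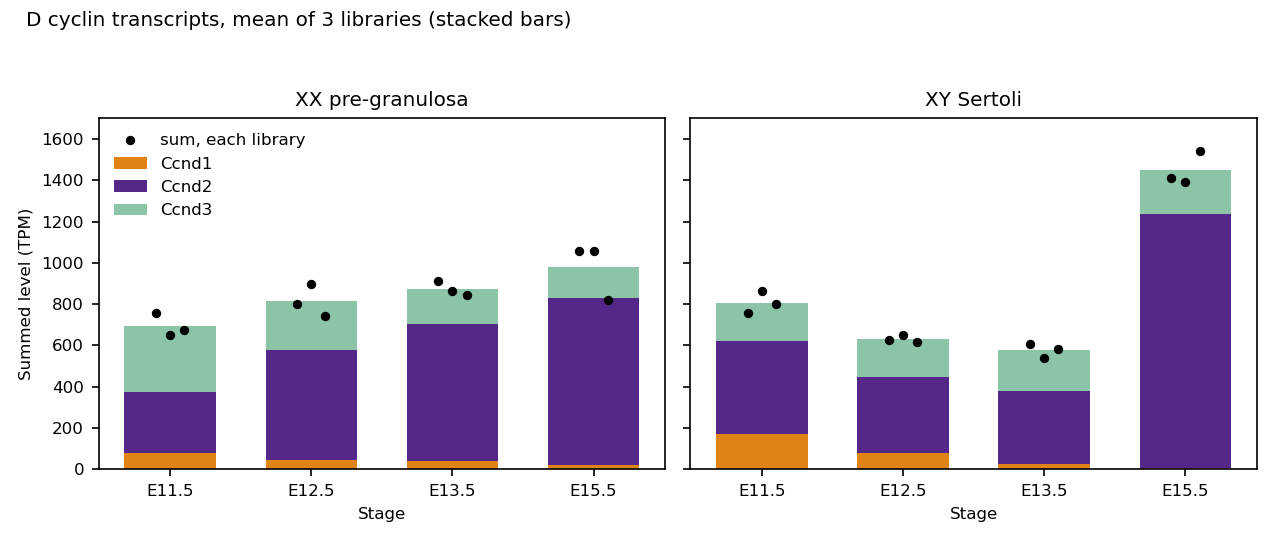
Summed TPM of the 3 D cyclins (vertical axis, linear, from 0) by stage in XX (left) and XY (right); stacked bars are means of 3 libraries, and black points are the sums in single libraries. Ccnd2 holds 82.4% of the sum in XX and 85.05% in XY at E15.5, and the XY sum rises from 576 to 1448 TPM in the last step.

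Set against p21 and p27 alone, D cyclin RNA exceeded Cdkn1a plus Cdkn1b RNA in both sexes, by far more in Sertoli than in pre-granulosa cells. The ratio of the summed D cyclin TPM to the summed TPM of Cdkn1a and Cdkn1b was 3.9 ± 0.48 in XX at E11.5, then 4.4 ± 0.595, then 4.07 ± 0.439, and finally 4.36 ± 1.36, stages whose libraries overlapped. In XY it was 42.2 ± 2.84, 48.1 ± 0.949, 47.3 ± 3.5 and 91.9 ± 15. The XY E15.5 libraries, at 92.3, 76.7 and 107, were above all others, and the lowest XY library had 39.0 where the highest XX library had 5.23. Cdkn1c is left out of this ratio: in XX its level alone was above the D cyclin sum in every library of E11.5, E12.5 and E15.5 (at least 1999 TPM), and in 2 of 3 XY libraries of E11.5. These ratios of RNA say nothing of protein, and no test was made of them. They also rest on the lengths behind the deposited TPM, which for Cdkn1a, Cdkn1b and Ccnd2 fall short of the longest coding transcripts.

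Leaving out Rb1, whose transcript length is in doubt, the order of levels per length put Ccnd2 first in every XY group and in XX from E12.5 on. The length of Ccnd2 is in doubt too (implied 1.40 to 2.71 kb, longest coding transcript 6.33 kb), so its place holds only for the deposited TPM. Implied lengths also fell short of the longest coding transcript for Cdkn1a (1.05 to 1.26 against 2.08 kb) and Cdkn1b (2.4 to 2.6 against 4.552 kb). Those of Cdkn2d were close to it (1.33 to 1.39 against 1.423 kb). The order of Cdkn1a and Cdkn2d in XX at E15.5 thus also holds only for the deposited TPM. At XX E11.5, Ccnd3 (222 to 398 TPM) and Ccnd2 (209 to 375 TPM) could not be ranked. In XX at E15.5, Ccnd2 (694 to 881 TPM) was followed by Cdkn1b (159 to 249.7) and Ccnd3 (112 to 194), which overlapped, then by Cdkn1a (43.8 to 46.4) and Cdkn2d (38.9 to 43.2), which did not overlap, and by Ccnd1 (at most 25.2). In XY at E15.5, Ccnd2 (1175 to 1323 TPM) was followed by Ccnd3 (205 to 214) and Cdkn2d (47.5 to 50.8), and Cdkn1b, Ccnd1 and Cdkn1a were all at or below 12.47 TPM, the last pair overlapping. Cdkn2d was thus the most abundant of the 6 inhibitors per length in XY cells at every stage, and in XX cells Cdkn1a or Cdkn1b was.

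Rb1, whose protein the D cyclin kinases phosphorylate, was called between the sexes at E11.5 alone. XX libraries had 14.3, 9.22 and 15.49 CPM at E11.5, then 9.56, 11 and 9.97, then 11.6, 13.6 and 13.52, and finally 9.55, 12.3 and 11.3. XY libraries had 21.98, 18.3 and 22.4 CPM, then 11.8, 13.6 and 14.8, then 13.2, 10.6 and 11.4, and 14.2, 11.6 and 8.86 at E15.5. The XY E11.5 libraries stood above all the others. Rb1 was lower in XX at E11.5 (log2 -0.69, SE 0.18, adjusted p = 0.0039; 0.0788 with only the libraries compared; -0.49, adjusted p = 0.024, without XX E11.5 replicate 2) and was not called at later stages (-0.40, 0.14 and -0.07; adjusted p = 0.0627, 0.495 and 0.751). It fell in XY from E11.5 to E15.5 (log2 -0.85, adjusted p = 0.000372), and its XX change of -0.23 was not called (adjusted p = 0.289; -0.50, adjusted p = 0.0164, without XX E11.5 replicate 2).

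The Rb1 values need care. Its counts and TPM imply a mean length of 0.399 to 0.806 kb, although its 1 annotated coding transcript is 4.656 kb long and its shortest transcript is 0.324 kb long. On chromosome 14, at 73183673 to 73325822 on the minus strand, it overlaps 4 other genes, among them Lpar6 and Rcbtb2 on the plus strand. Lpar6 had a group mean of 161 CPM in XY at E11.5 and 58.3 to 106 in the other 7 groups, and Rcbtb2 had 90.9 in XY at E11.5 and 44.3 to 66.3 elsewhere, so both were highest where Rb1 was highest; whether their reads reached the Rb1 count was not tested. Limma-trend on log2(TPM + 1) called Rb1 higher in XX at E13.5 (0.73, adjusted p = 0.00667).

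Counted over time, 6 of the 9 genes changed across the 4 stages in XX, where 74% of all genes did, and 8 changed in XY, where 70.3% did. Cdkn2b, Cdkn2d and Rb1 had no such call in XX, and Ccnd3 had none in XY. The XY call of Cdkn1b (adjusted p = 0.0469) and that of Cdkn2c (0.0463) lay close to the threshold, and each was lost on leaving out most single libraries (adjusted p up to 0.295 and 0.129). Between E11.5 and E15.5, 6 genes were called in XX, 2 up (Cdkn1b and Ccnd2) and 4 down, against 59.4% of all genes (28.3% up and 31.1% down). Among the 4, Cdkn2c (-2.38, adjusted p = 0.021) was lost without XX E11.5 replicate 3 (0.135), XX E15.5 replicate 1 (0.0705) or 2 (0.0524), or with only the libraries compared (0.13). In XY 7 were called, 4 up and 3 down, against 57.7% (30.2% and 27.5%). The change differed between the sexes for 6 of 9 genes (52.8% of all genes, 25.8% positive and 27% negative), 2 with the more positive change in XX (Ccnd1 and Rb1) and 4 with the more positive change in XY. Of these, Rb1 (0.62, adjusted p = 0.0473) was lost on leaving out any of 13 libraries, with an adjusted p of up to 0.141, and with the replicate block (0.0555), and Cdkn2c (-3.22, adjusted p = 0.0226) without XX E11.5 replicate 3 (0.0878) or XY E15.5 replicate 1 (0.0526). By step, the XX calls were 1 up and 4 down (16.7% and 17.3% of all genes, 34% together), 2 up (14.2%, beside 17.4% down, 31.7% together), and 1 up and 2 down (12.8% in each direction, 25.6% together). The XY calls were 2 up and 4 down (27.1% and 24.8%, 51.9% together), 2 down (8.62%, beside 8.02% up, 16.6% together), and 3 up and 1 down (9.79% of all genes down, 21.3% in either direction). Of the first XY calls, the rise of Cdkn2b (1.46, adjusted p = 0.0328) was lost in 15 of 32 alternatives, 11 of them omissions of a single library, with an adjusted p of up to 0.28.

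The other genes of the pathway, 30 that act with the members at the G1/S step, split in both directions. In stage order, 6 were higher and 6 lower in XX, then 8 and 9, then 10 and 11, and last 7 and 17, with a median log2 difference at E15.5 of -0.31 beside 0.05 over all genes. Of all genes tested, 42%, 62.1%, 66.1% and 69.4% were called in stage order, in near-equal parts higher and lower. Cdk6, the kinase partner of D cyclins, rose in XX from 66.2, 70.3 and 47.7 CPM at E11.5 to 303, 240.4 and 334 at E15.5, and had 41.5, 45.4 and 42.3 in XY at E15.5. That was a difference of 2.76 (SE 0.15, adjusted p = 9.15e-13), whereas Cdk4, its near relative, was called only at E13.5 (0.25, adjusted p = 0.0392). Ccne1, the cyclin that drives CDK2, was higher in XX from E12.5 on (1.55, 2.13 and 0.68). Genes lower in XX at E15.5 included the repressor E2F genes E2f7 (-5.88, adjusted p = 7.75e-08) and E2f8 (-3.02) and the growth regulator Mycn (-3.47).

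**Figure D4:**
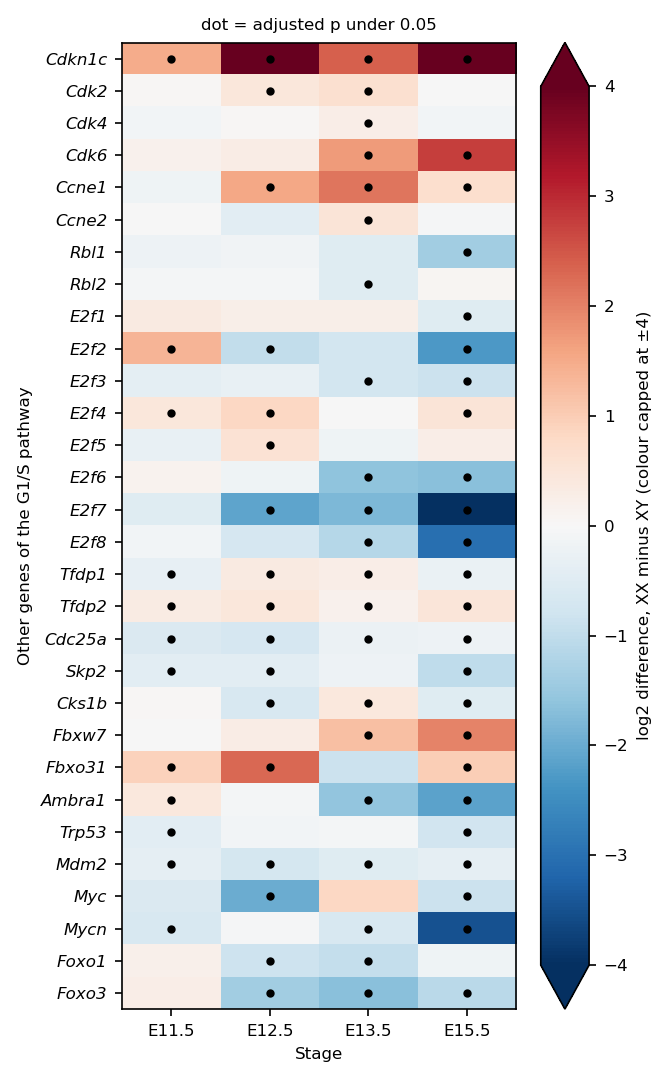
Log2 difference, XX minus XY, of 30 other genes of the G1/S step (rows) at 4 stages (columns); red is higher in XX, blue is higher in XY, the colour scale stops at ±4, and dots mark an adjusted p under 0.05. Cdkn1c and, from E13.5, Cdk6 stand out as higher in XX, and E2f7, E2f8 and Mycn at E15.5 as lower (-5.88, -3.02 and -3.47).

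Of 16 genes of DNA replication and mitosis, which report on cells in cycle, 0 were higher and 6 lower in XX at E11.5, then 1 and 14, then 2 and 11, and 0 and 16 by E15.5, with median log2 differences of -0.33, -1.41, -0.68 and -2.41. Of all genes tested, 21.4% were higher and 20.6% lower in XX at E11.5, then 30.5% and 31.5%, then 32.8% and 33.3%, and 34.9% and 34.4% by E15.5. Their summed level in XX was 2041 ± 374 CPM at E11.5 and 1014 ± 22.6 at E15.5, and in XY it was 2568 ± 252 and 4282 ± 48.8 (SD, n = 3). The XX E15.5 libraries had the lowest sums and the XY E15.5 libraries the highest. At that stage Cdkn1b and Ccnd2 each had their highest mean in both sexes. Cdkn1b was at 321 CPM in XX and 16.35 in XY, and Ccnd2 at 907 in XX and 1278 in XY. A link between these genes and the sums was not tested. In XX at E11.5 the sums were 2312, 1614 and 2196 CPM, lowest in replicate 2, the library with the most Foxl2 and Cdkn1b. Cdkn1a is a target of p53, and 12 other p53 targets were called in both directions: 3 were higher and 3 lower in XX at E11.5, then 2 and 6, then 5 and 5, and 2 and 7 by E15.5. Calls were also common among all genes, at 42%, 62.1%, 66.1% and 69.4% in stage order, so these counts alone do not set the p53 targets apart. Mdm2, the ubiquitin ligase of p53, and Ccng1 were lower in XX at every stage (Mdm2 -0.36, -0.69, -0.50 and -0.34; Ccng1 -0.27, -0.85, -0.77 and -0.51). They are examples from the lower side only, and the targets called higher in XX, 5 of the 12 at E13.5, are not named here. A link between Cdkn1a and p53 was not tested.

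The XX minus XY difference of all 9 genes tested changed with stage (adjusted p under 0.05 in the sex-by-stage test), as it did for 70.1% of all genes, and the p-values are given in the closing section. For the 4 genes with the smallest p in that test, the genes with the most similar course over the 24 libraries (Pearson correlation of log2(CPM + 1), as a description) were Mtss2 (0.956), Igf2bp1 (0.944) and Ctrl (0.943) for Ccnd1. They were Plpbp (0.945), Tmem159 (0.933) and Tex14 (0.933) for Ccnd2, B4galt5 (0.987), Tshr (0.984) and Actr6 (0.983) for Cdkn1a, and Cd74 (0.858), Icam4 (0.847) and Lgmn (0.813) for Cdkn2d. Igf2bp1, which encodes an RNA-binding protein, fell in XY from 294 CPM at E11.5 to 13.9 at E15.5 and in XX from 405 to 37.6, beside 235 to 12.3 and 128 to 39.3 for Ccnd1. Libraries of a group share their cells and stage, so these correlations rest on 8 groups rather than on 24 independent points.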

How the data were processed

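RNA of 24 libraries was measured by polyA RNA-seq with a kit for low input that amplifies cDNA, per the labels' protocols. They describe no molecular identifiers, and floors and intervals cover counting error only. The authors deposited estimated counts per gene and TPM, 1 value for each gene and library. The submitters' processing notes name mm10; the aligner, the counter and the use of strand are not given in the sources used here. Of the estimated counts, 17.5% were not whole, and all were rounded. Of 32040 genes, 7654 had no count after rounding. For XX E13.5 replicate 1 the title gives E13.5 and another field E12.5, and it was kept at E13.5.

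The test was edgeR 4.0.16 under R 4.3.3 (TMM, filterByExpr, robust quasi-likelihood, 8 group means, 16 residual degrees of freedom), with Benjamini-Hochberg adjustment over 16190 genes. SE is the absolute log2 difference divided by the square root of F. CPM used TMM-scaled library sizes. On data simulated for XX minus XY at E15.5 (15601 genes tested), the procedure recovered 83% of changes of 1 and 100% of changes of 2 on the log2 scale, with 100 genes changed at each size. It made 17 false calls there, and 1 at E12.5, where no change was simulated. The simulation used the same spread for all genes and groups, so it does not cover the wider scatter of the XX E11.5 libraries. Alternatives were DESeq2 size factors, DESeq2 1.42.0, filters of 1 or 10 counts, the replicate block, limma-trend (limma 3.58.1) on log2(TPM + 1) or log2(TPM + 0.1) for genes at 1 TPM in 3 libraries, limma-trend on all genes above 0, a fit of only those libraries compared, and the omission of each library in turn. Deviations of same-numbered XX and XY libraries correlated at 0.169, 0.132 and 0.351 at E11.5, all above 0.1, and at the later stages 1 of 9 such correlations was above 0.1. Libraries with different numbers also passed 0.1: XX replicate 2 with XY replicate 1 at E11.5 (0.142), and pairs at E13.5 (0.147 and 0.122) and E15.5 (0.118). These values do not settle whether the numbers pair libraries at any stage, and the main test used no pairing. Genes were placed by GENCODE M21 (GRCm38), and implied lengths are counts over TPM, scaled on genes with 1 transcript. All members and any list gene could be named, and like courses were given for the 3 closest genes of the 4 members with the smallest interaction p. Members and lists were chosen with earlier results of these data known.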

Additional observations from a re-analysis of the deposited data

Results flagged for a closer look

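The XX minus XY difference changed across the 4 stages for each of the 9 genes tested, by edgeR's test of the interaction of sex and stage, and 70.1% of all genes passed the same test. The adjusted p was 3.45e-09 for Ccnd1, whose difference went from -0.88 at E11.5 to 1.67 at E15.5, and 3.67e-08 for Ccnd2, whose difference was positive at E12.5 and E13.5 and negative at E11.5 and E15.5. It was 2.77e-06 for Cdkn1a, with the largest difference at E13.5 (4.77), 6.65e-05 for Cdkn2d, which differed at E11.5 alone among the calls, and 0.000129 for Ccnd3, which went from 0.84 to -0.51. It was 0.00128 for Cdkn2b (1.72 to -2.05). The remaining values were close to the threshold: 0.0293 for Rb1, 0.0328 for Cdkn2c and 0.0488 for Cdkn1b. Leaving out single libraries ended the call of Cdkn1b in 19 of 24 cases, with adjusted p up to 0.122, and it was kept only without replicate 2 or 3 of XX E11.5, 2 of XX E15.5, 3 of XY E11.5, or replicate 2 of XY E15.5. That of Rb1 ended without XX E11.5 replicate 2 (0.0602), replicate 3 of XX E13.5 (0.0558), replicate 1 of XY E11.5 (0.0677) or replicate 3 of XY E13.5 (0.0641). That of Cdkn2c ended without replicate 1 or 3 of XX E11.5, 3 of XX E12.5, 2 or 3 of XX E13.5, 2 of XX E15.5, replicate 1 or 2 of XY E11.5, 2 or 3 of XY E13.5, or 1 or 2 of XY E15.5, with adjusted p from 0.0501 to 0.0752.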

How the results depend on the processing

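Every XX minus XY difference of Cdkn1a and Cdkn1b kept its direction and its call under each alternative. Counts of genes called moved by more than 1.5 times as follows. The share of all genes called under each alternative is not given here, so these counts cannot show whether calls moved alike among all genes. For XX E12.5 minus E11.5 (5 genes), 3 were called with no filter beyond 1 count, 2 in each of the 3 limma-trend settings, 1 with only the libraries compared, and 2 to 6 on leaving out single libraries. For XX E13.5 minus E12.5 (2 genes), 1 was called on log2(TPM + 0.1), 0 by limma-trend without the filter, and 4 with only the libraries compared. For XY E13.5 minus E12.5 (2 genes), 1 was called by limma-trend without the filter, and 1 to 2 on leaving out single libraries. For change over time in XY (8 genes), 5 were called with at least 10 counts in every library, a filter that leaves fewer members to test, for XX minus XY at E11.5 (8 genes), 5 with only the libraries compared, and for XX E15.5 minus E13.5 (3 genes), 5 without the 6 E11.5 libraries, a setting chosen after seeing the data. Signs turned only in differences that were never called. Cdkn2d XX minus XY at E13.5 (-0.017) was 0.041 with DESeq2 size factors, 0.072 with at least 10 counts, 0.042 with DESeq2, 0.032 with only the libraries compared and 0.004 without the E11.5 libraries, and ran from -0.028 to 0.062 on leaving out single libraries. Cdkn2d at E12.5 (-0.108) was 0.109 on log2(TPM + 1), with and without the filter, and 0.112 on log2(TPM + 0.1), and ran from -0.109 to 0.014. Rb1 at E15.5 (-0.069) was 0.314, 0.325 and 0.314 in the 3 limma-trend settings and ran from -0.153 to 0.091, Cdkn2b in XX from E11.5 to E15.5 (-0.404) ran from -0.834 to 0.247, and the Ccnd2 difference between the sexes (0.003) ran from -0.053 to 0.096. On log2(TPM + 1) the median of all genes in XX minus XY at E12.5 was 0.143, against -0.00511 with edgeR on counts. In CPM instead of TPM the Ccnd1 share of D cyclins was 3.47% in XX and 0.794% in XY at E15.5, and the Ccnd2 share 80.2% and 82.2%. With the replicate block no XX minus XY call at E11.5 changed. That block fits the same effect of replicate number at all 4 stages, so it cannot show whether the calls would hold under pairing at E11.5 alone. The difference between the sexes for Rb1 (0.624, adjusted p = 0.0555) and the XY change of Cdkn1b (0.0535) were no longer called under the block. Depth limits Cdkn2a, Cdkn2b and Cdkn2c, whose counts were at most 111 per library. The cause of the other changes was not tested.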

Other observations

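Genes whose products mark D cyclins or p27 for destruction also differed between the sexes. Ambra1, the adaptor through which D cyclins are ubiquitinated, fell in XX from 47.2, 39.1 and 48.3 CPM at E11.5 to 13.46, 14.1 and 10.02 at E15.5, and XY libraries had 55.6, 58.5 and 51.2 at E15.5 (log2 XX minus XY -2.15, SE 0.16, adjusted p = 1.5e-10). Ambra1 was thus lowest in XX at the stage when XX cells held the most Ccnd2 RNA (mean 907 CPM) but the least Ccnd1 (39.3) and Ccnd3 (185). XY cells at that stage, with more Ambra1, had the highest Ccnd2 mean of all groups (1278 CPM). A link between Ambra1 and the D cyclins was not tested. Skp2, the F-box protein that targets p27, was at 44.7, 47.2 and 47.7 CPM in XX and 102, 89.9 and 93.2 in XY at E15.5 (-1.03, SE 0.085, adjusted p = 8.17e-10), and in XX it fell by 1.25 on the log2 scale from E11.5, while Cdkn1b rose. Fbxw7, which targets cyclin E, moved the other way and had 71.02, 74.2 and 79.1 CPM in XX and 19.8, 15.9 and 20.6 in XY at E15.5 (1.99, SE 0.13, adjusted p = 1.83e-11). Foxo3, a transcription factor known to act on Cdkn1b, was lower in XX from E12.5 on (-1.40, -1.68 and -1.07), where Cdkn1b was higher. A link of Skp2, Fbxw7 or Foxo3 with Cdkn1b was not tested, and Skp2 targets p27 protein, which RNA counts do not measure. The genes of this section belong to the pathway list whose counts are given above, and were picked from it after their values were seen.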
